A study of Rattus norvegicus with 10 samples.

Results

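The Neurod6 and Rspo2 excitatory neuron nuclei were 908 of 55401 nuclei kept from the dentate gyrus of 4 rats. They were chosen on their unique molecular identifiers (UMIs), the tags that count single captured RNA molecules. A nucleus was kept with at least 500 UMIs, at most 5% of them mitochondrial. It was a member when it held at most 1 UMI of Gad1 and Gad2, at least 1 of Slc17a7, and at least 3 of Neurod6, Rspo2, Vgll3 and Lpl together, with that sum above the sum of Fermt1, Adamts2, Trpc7 and Chst8. Those 11 genes chose the nuclei, so their levels in the nuclei are given as a description and carry no test.

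Young adult male Sprague-Dawley rats were studied 3 weeks after lateral fluid percussion injury (LFPI), in which a fluid pulse strikes the intact dura through a craniectomy on the right side and causes a traumatic brain injury (TBI). Single-nucleus RNA-seq covered the dentate gyrus of the injured side in 2 TBI rats, 1 sham rat that had the craniectomy and anesthesia without the pulse, and 1 naïve rat, and the study took the sham and naïve rat together as control. Craniectomy was thus shared by the TBI and sham rats but not by the naïve rat, so sham and naïve procedures cannot be told apart from the rats themselves. Bulk RNA-seq came from other rats, 3 sham and 3 TBI.

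Slc17a7 encodes the vesicular glutamate transporter VGLUT1 of hippocampal excitatory neurons. NeuroD6 is a helix-loop-helix transcription factor of pyramidal neurons, and R-spondin 2 is a secreted protein that strengthens Wnt signaling through LGR receptors. Lipoprotein lipase, encoded by Lpl, releases fatty acids from lipoproteins, and Vgll3 encodes a cofactor of TEAD transcription factors. The dentate gyrus is made up mostly of granule neurons, which carry the transcription factor Prox1, while its hilus holds mossy cells and borders the pyramidal layer of field CA3.

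The promoter windows of Neurod6 and of Fermt1, from the name of the mirrored class described next, are shown because NeuroD factors bind E-boxes of the form CAGATG. Both come from RefSeq on GRCr8, cover 250 bases before to 50 after the gene start, and are written on the gene's strand with CAGATG in capitals. Neurod6 lies at chr4:86180106-86180405 on the minus strand and Fermt1 at chr3:140666370-140666669 on the minus strand.
Neurod6: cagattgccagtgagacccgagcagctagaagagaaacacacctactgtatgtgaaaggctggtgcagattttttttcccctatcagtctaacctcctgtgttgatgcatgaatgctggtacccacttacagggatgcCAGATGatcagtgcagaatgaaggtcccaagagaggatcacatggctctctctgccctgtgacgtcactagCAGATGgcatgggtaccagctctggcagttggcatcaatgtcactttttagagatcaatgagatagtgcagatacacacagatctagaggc
Fermt1: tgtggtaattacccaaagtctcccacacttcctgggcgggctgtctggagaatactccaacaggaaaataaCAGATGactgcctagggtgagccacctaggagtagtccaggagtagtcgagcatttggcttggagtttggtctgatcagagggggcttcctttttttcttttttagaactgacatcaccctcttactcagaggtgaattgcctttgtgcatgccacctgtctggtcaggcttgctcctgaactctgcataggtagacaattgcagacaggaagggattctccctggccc
CAGATG or its reverse complement CATCTG occurred at 2 places in the Neurod6 window, at positions 139 and 210, and at 1 place in the Fermt1 window, at position 72. It occurred in 16.6% of all 33469 windows of this length, and the palindromic E-box CAGCTG, which does not overlap it, in 15.1%. The windows of Vgll3, Adamts2, Trpc7 and Chst8 held no CAGATG on either strand. Rspo2 and Lpl had no entry. A match is only a run of letters, and none of these windows was tested for binding here.

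TBI rats 1 and 2 gave 200 and 270 members, the sham rat 209 and the naïve rat 229. Their median UMI count was 4549, 3762.5, 3903 and 5417 in that order, and their sums were 1070535, 1114875, 847082 and 1507899 UMIs. Every member held at least 1000 UMIs. For comparison, the same rats gave 961 nuclei chosen by the mirrored rule (Fermt1 and Adamts2 nuclei) and 2128 granule nuclei with at least 3 Prox1 UMIs, under 3 UMIs of either 4-gene sum and at least 1 UMI of Slc17a7.

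The libraries differed in ways that may bear on the values below. At least 3 Prox1 UMIs were found in 7.50% of members in TBI rat 1 and 6.99% in the naïve rat, against 1.11% in TBI rat 2 and 1.91% in the sham rat. At least 3 UMIs of microglial, oligodendroglial or vascular marker genes were found in 24.5% of members in TBI rat 1, against 4.81%, 9.09% and 10.5% in TBI rat 2, the sham and the naïve rat. Ribosomal protein genes made up 0.248% of member UMIs in TBI rat 1, against 0.0837%, 0.108% and 0.145%, so that it stood apart in both measures. The naïve rat stood apart in astrocyte RNA, with a summed level of the astrocyte list of 976 CPM in its members (CPM, the usual scale of a gene's UMIs relative to all UMIs of its class in that rat) against 402, 246 and 270.3 in TBI rats 1 and 2 and the sham rat. Pairs of libraries shared between 46 and 64 cell barcodes, and no member barcode was a member in another library.

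Over 3673 genes of at least 50 CPM, the SD of the log2 ratio between members of one rat and another was 0.51 for the 2 TBI rats and 0.43 for the 2 controls. It was 0.35 and 0.37 between TBI rat 1 and the sham and naïve rat, and 0.42 and 0.56 between TBI rat 2 and the same controls. The 2 TBI rats thus differed more from each other than either did from the sham rat.

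Rspo2 gave most of the UMIs that selected these nuclei. It was at 625, 871.8, 831 and 559.7 CPM in TBI rat 1, TBI rat 2, the sham and the naïve rat, 722 ± 153 (SD, n = 4 rats), and had a UMI in 95.5%, 95.6%, 95.7% and 87.3% of members. Its level was 87.5 CPM in Fermt1 and Adamts2 nuclei and 32.7 in granule nuclei. Neurod6 was at 121, 208, 115 and 121 CPM and had a UMI in 42.5%, 50.7%, 34.0% and 45.9% of members. TBI rat 2 was thus the highest in both genes, and the naïve rat the lowest in Rspo2.

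Lpl was at 69.1, 65.5, 59.0 and 53.1 CPM, the narrowest spread of the 4 genes relative to its mean. Vgll3 was at 38.3, 64.6, 64.9 and 101 CPM, lowest in TBI rat 1 and highest in the naïve rat. Granule nuclei held 3.36 CPM of Neurod6, 2.21 of Vgll3 and 0.928 of Lpl, and Fermt1 and Adamts2 nuclei held 51.5, 17.7 and 29.8. Slc17a7 was at 647 CPM in members, 599.7 in Fermt1 and Adamts2 nuclei and 611 in granule nuclei, a narrow range for a gene of which every nucleus in these classes had to hold a UMI.

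**Figure D1:**
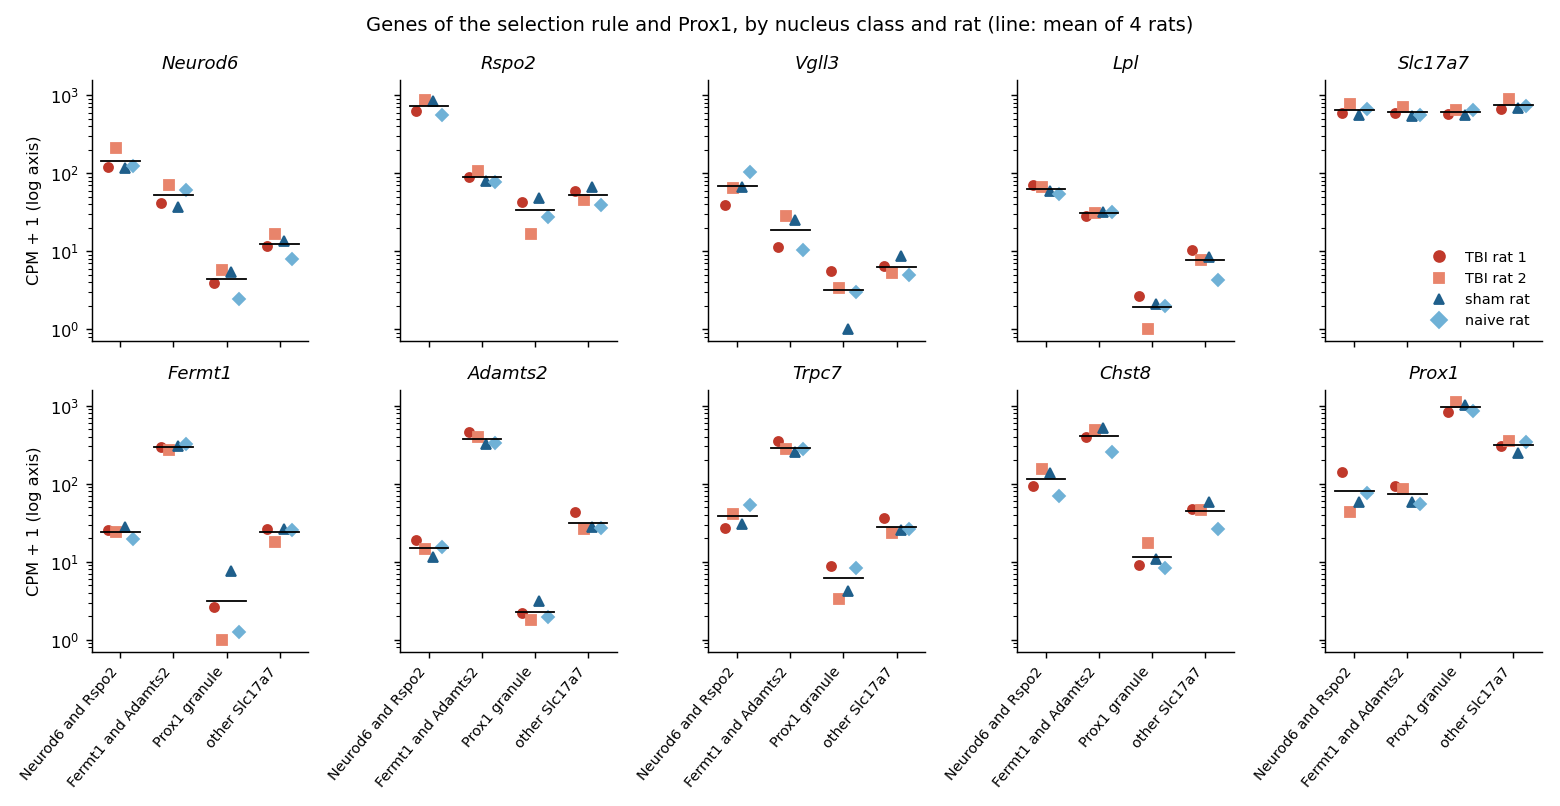
Level (CPM + 1, log axis) of the genes of the selection rule and of Prox1 in 4 classes of nuclei, with 1 point per rat and the mean of the 4 rats as a line. The 4 genes on the left of the upper row chose the Neurod6 and Rspo2 nuclei and are highest there by construction, the means of Slc17a7 lie between 599.7 and 740.0 CPM, and Prox1 averages 78.7 CPM in the Neurod6 and Rspo2 nuclei against 957 in granule nuclei.

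The threshold cut through a continuous range. Just inside it, with a sum of exactly 3 UMIs, were 78, 74, 85 and 64 members in TBI rats 1 and 2, the sham and the naïve rat. Just outside it, with a sum of 2 above the opposing sum, were 174, 101, 192 and 115 nuclei. The median sum of a member was 4 UMIs in 3 of the rats and 5 in the naïve rat, and 72, 125, 69 and 118 members held 5 or more. A UMI of the opposing genes was present in 50%, 56.7%, 54.5% and 55.0% of members. The gate thus marks the upper end of a gradient of few UMIs per nucleus.

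The label was checked against markers of the cell types that the dissection could hold. GABAergic markers, of which the rule limits Gad1 and Gad2, were low in members, at a summed 57.9, 3.59, 17.7 and 27.9 CPM over 10 genes with Gad1 the most abundant, and Dlx6 and Npy were at 0. Without Gad1 and Gad2 the sums were 29.0, 1.79, 7.08 and 13.3 CPM. The list of CA3 pyramidal markers reached 5029, 7672, 6048 and 4868 CPM over 12 genes, with none at 0. It averaged 5904 in members, 4767 in Fermt1 and Adamts2 nuclei and 1577 in granule nuclei. CA3 genes were thus abundant in both gated classes of excitatory nuclei, and the name by genes was kept.

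Among the CA3 markers, Cpne4, which encodes a calcium-dependent membrane-binding copine, was at 1645, 2664, 2193 and 1562 CPM against a mean of 1556 in Fermt1 and Adamts2 nuclei and 499 in granule nuclei. Grik4, a high-affinity kainate receptor subunit of CA3 synapses, was at 1509, 2048, 1780.2 and 1062 CPM against 810.2 and 461. Nectin3, an adhesion protein of hippocampal synapses, was at 240.1, 306, 219.6 and 196 CPM against 136 and 24.4. For these 3 genes the mean of members was above that of both other classes. Trps1, a zinc-finger repressor, showed another order, with 1428 CPM in members, 1717 in Fermt1 and Adamts2 nuclei and 218 in granule nuclei. Rnf182 was at 345, 366.02 and 94.9 CPM in the same order and Bok at 35.1, 34.7 and 2.54, while Iyd, Coch and Cdh24 were at most 3.74 CPM in any rat.

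The difference from granule nuclei held for Trps1 at equal depth. With every nucleus thinned to 1000 UMIs, Trps1 had a UMI in 57.5%, 75.9%, 63.6% and 62.9% of members in TBI rats 1 and 2, the sham and the naïve rat, and in 16.5%, 9.02%, 16.1% and 4.95% of granule nuclei. Without thinning the shares were 87.5%, 94.1%, 87.1% and 81.2% of members and 47.1%, 20.3%, 41.6% and 11.8% of granule nuclei, whose median UMI counts were 3406.5, 2400.0, 2748 and 3545. No member and 3 granule nuclei fell under 1000 UMIs and were left out. For Cpne4 the thinned share was 66.4% of members and 73.5% of Fermt1 and Adamts2 nuclei in the naïve rat, the reverse of the order in TBI rat 1 (74.5% and 70.5%), TBI rat 2 (88.5% and 76.0%) and the sham rat (80.9% and 75.6%).

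Markers of other principal cells were lower. The CA1 list summed to 44.5 CPM in members against 244 in Fermt1 and Adamts2 nuclei, in both with Ndst4 as its most abundant gene. The CA2 list summed to 113 CPM, of which Ntf3 gave 84.5, with Sostdc1 at 0. The mossy cell list summed to 316 CPM against 489.8 in Fermt1 and Adamts2 nuclei and 411 in granule nuclei, mostly Necab1, which all 3 classes held. Gal was at 0 in members, and Drd2 and Calb2, also on the mossy cell list, were at 0.224 and 0.633 CPM. The list of subiculum and cortex markers summed to 278 CPM against 428 and 313, mostly Tle4, with Slc17a6, a vesicular glutamate transporter of other regions, at 2.29 CPM.

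Granule markers summed to 772, 271, 641 and 637 CPM in members of TBI rats 1 and 2, the sham and the naïve rat, a mean of 580.0 against 2592 in granule nuclei, with Dsp at 0. Without Prox1, which chose the granule nuclei, the means were 501 and 1635 CPM. Prox1 itself was at 139, 42.2, 57.8 and 75.6 CPM in members. TBI rat 1 was thus the highest and TBI rat 2 the lowest in both. Oligodendrocyte markers summed to 262, 91.5, 105 and 216 CPM and microglia markers to 50.4, 35.9, 37.8 and 65.7 CPM, with P2ry12 at 0. Their part in the values of other genes was not tested, beyond the alternatives that leave out the members with such UMIs.

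**Figure D2:**
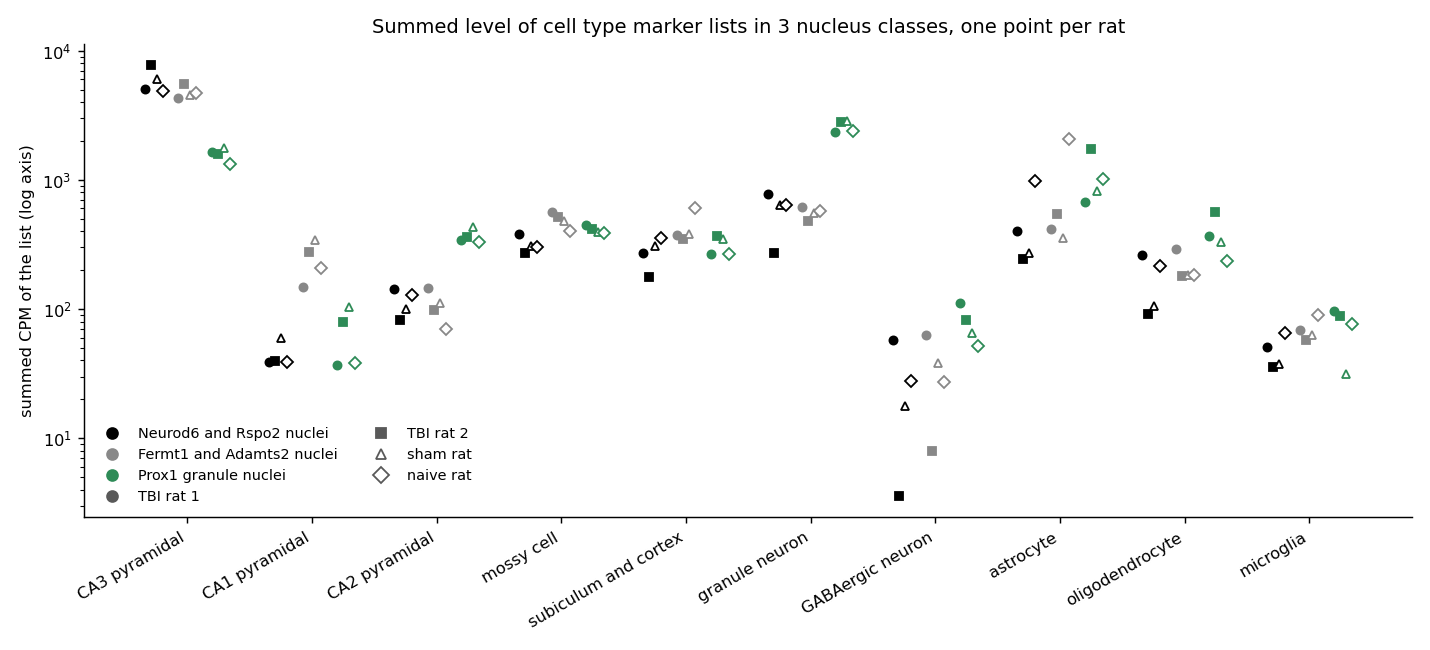
Summed level (CPM, log axis) of 10 lists of cell type markers in 3 classes of nuclei, with 1 point per rat. Filled points are TBI rats and open points the sham and naïve rats. The CA3 list lies between 4868 and 7672 CPM in the Neurod6 and Rspo2 nuclei and between 1335 and 1769 in granule nuclei, and the granule list shows the reverse order.

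Beyond the genes of the rule, members were compared with all other Slc17a7 nuclei with little Gad1 or Gad2. Only genes with the same direction in all 4 rats were listed, given as log2 ratios with a pseudocount of 1 CPM. Rbm44, an RNA-binding protein gene, was at 93.4, 163, 115 and 229 CPM in members and at a mean of 18.1 in the other nuclei, a log2 ratio of 2.98. Khdrbs3, which encodes a splicing regulator of neurexin transcripts, was at 1219, 1525, 1271 and 1008 CPM against 229, a log2 ratio of 2.45. Receptor and enzyme genes followed: the relaxin receptor gene Rxfp1 at 2.55, the orexin receptor gene Hcrtr2 at 2.43, the heparan sulfate endosulfatase gene Sulf2 at 2.43, the gene Trhde of the ectoenzyme that degrades thyrotropin-releasing hormone at 2.43, and the carboxypeptidase gene Cpm at 2.23. Man1a1, a mannosidase of glycan trimming, was at 2.39, Nectin3 at 2.30, Fxyd7, a regulator of the sodium pump, at 2.26, and St8sia5, a ganglioside sialyltransferase, at 2.23.

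The spread between rats differed among these genes. Fxyd7 was nearly level over rats, at 85.9, 89.7, 96.8 and 97.5 CPM. Man1a1 was at 45.8, 185, 124 and 53.1 CPM and Cpm at 82.2, 249, 127 and 79.6, both highest in TBI rat 2 and the sham rat and lower in TBI rat 1 and the naïve rat. Trhde, at 255, 600.1, 570.2 and 401 CPM, was also lowest in TBI rat 1. The 2 TBI rats thus lay at opposite ends for several of these genes.

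Genes lower in members than in the other Slc17a7 nuclei were Rasl10a at a log2 ratio of -2.25, Rsph10b at -2.11, Amotl1 at -2.07, Grm2, the presynaptic metabotropic receptor mGluR2, at -2.01, and Mgat5b at -2.00. Members of TBI rat 1 held more of all 5 than those of the other rats. Amotl1, for example, was at 36.4, 4.48, 15.3 and 15.9 CPM in members and at a mean of 100.3 in granule nuclei. Granule RNA in these members moved the same way between rats, and its part in these ratios was not tested.

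Against Fermt1 and Adamts2 nuclei, the genes most above in members outside the rule were Trhde, Epha8, Man1a1, Mgll, Bcl11a, Nptx1, Fxyd7 and Mas1, with log2 ratios from 1.96 down to 1.49. Bcl11a, a zinc-finger transcription factor of forebrain neurons, was at 735, 942.7, 858 and 594 CPM against a mean of 252. Mgll, the lipase that breaks down the endocannabinoid 2-arachidonoylglycerol, was at 217, 382, 319 and 247 CPM against 89.1. Nptx1, a neuronal pentraxin that gathers AMPA receptors, was at 191, 239, 146 and 179 CPM against 64.1.

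Several genes were far lower in members than in Fermt1 and Adamts2 nuclei. Grm8, the metabotropic receptor mGluR8, was at 65.4, 31.4, 59.0 and 86.9 CPM in members and at 662 in Fermt1 and Adamts2 nuclei, a log2 ratio of -3.43. Adamts18 was at -3.70, Ndst4 at -3.52, Rgs12 at -3.22, Itga9, an integrin subunit, at -3.01, and Myof at -2.88. The least of these differences in any one rat was -2.00, for Myof. Only genes with the same direction in all 4 rats were listed, so agreement in direction was fixed by the choice.

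Against granule nuclei, the genes most above in members outside the rule were Hcrtr2 at a log2 ratio of 4.40, Itgbl1 at 4.03, Sulf2 at 4.02, Rbm44 at 3.89, Cpm at 3.71 and Rxfp1 at 3.69. Itgbl1, an integrin-like secreted protein gene, was at 581, 668, 672 and 673 CPM against 38.7. Below granule nuclei were Prox1 at -3.59, a gene that chose the granule nuclei, Amotl1 at -2.41, Itga11 and Rsph10b at -2.31, Calb1, the calcium buffer calbindin of granule cells, at -2.22, Mgat5b at -2.21, Sipa1l2 at -2.20, Rasl10a at -2.14, and Adcy1, a calcium-activated adenylyl cyclase, and Bcl11b at -2.12. Bcl11a and its paralog Bcl11b thus ran in opposite directions, with 783 and 92.3 CPM in members against 417 and 404 in granule nuclei.

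The members differed in which of the 4 positive genes was counted most. Rspo2 was the most counted of the 4 positive genes in 161, 212, 180 and 167 members of TBI rats 1 and 2, the sham and the naïve rat, Neurod6 in 9, 19, 5 and 16, Vgll3 in 8, 15, 9 and 31, and Lpl in 5, 2, 3 and 3, with ties in the rest. The Vgll3-led members made up 4.0%, 5.56%, 4.31% and 13.5%, and were most common in the naïve rat. This split and the genes below were chosen after their values were seen and get no test.

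By construction of the split, Vgll3-led members held little Rspo2, at 103, 143, 56.0 and 50.3 CPM against 732, 1015, 924 and 714 in Rspo2-led members. Pde11a, a cyclic nucleotide phosphodiesterase gene, was at 455, 572, 252 and 452 CPM against 26.9, 32.8, 41.3 and 24.4. Htr2a, the serotonin receptor 5-HT2A, was at 124, 232, 308 and 155 CPM against 5.84, 33.9, 15.1 and 12.7. In each rat both genes were higher in the Vgll3-led nuclei. The same held for Cadps2, a priming factor of dense-core vesicles, at a mean of 481 against 97.2 CPM, for Cpne8 at 194 against 24.2, for Pde3a at 223 against 44.5, for the protease inhibitor gene Timp2 at 147 against 22.9, and for Trpc7, one of the opposing genes of the rule, at 139 against 28.7.

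Several genes that set members apart from other excitatory nuclei were low in the Vgll3-led ones. Trhde was at 45.9 against 496 CPM, Cpm at 6.31 against 145, Fxyd7 at 8.93 against 96.1, Hcrtr2 at 8.59 against 75.7 and Man1a1 at 14.1 against 109. Myrip, a linker of myosin to secretory granules, was at 31.1 against 265 CPM and Ajap1 at 2.28 against 73.7. The CA3 markers differed less, with Grik4 at 493 against 1688 CPM, Nectin3 at 94.3 against 245, Cpne4 at 1128 against 2102 and Trps1 at 871.2 against 1481. Rnf182 was at 256 against 356 CPM, not in the same direction in all rats. Amigo2, the only gene of the CA2 list named in this split, was at 56.1 against 3.03 CPM. It rested on 24 and 11 UMIs and was at 0 in the Vgll3-led nuclei of the sham rat. These means rest on few molecules, for example 162 UMIs of Pde11a over the Vgll3-led nuclei of all 4 rats and 109 over the Rspo2-led ones.

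**Figure D3:**
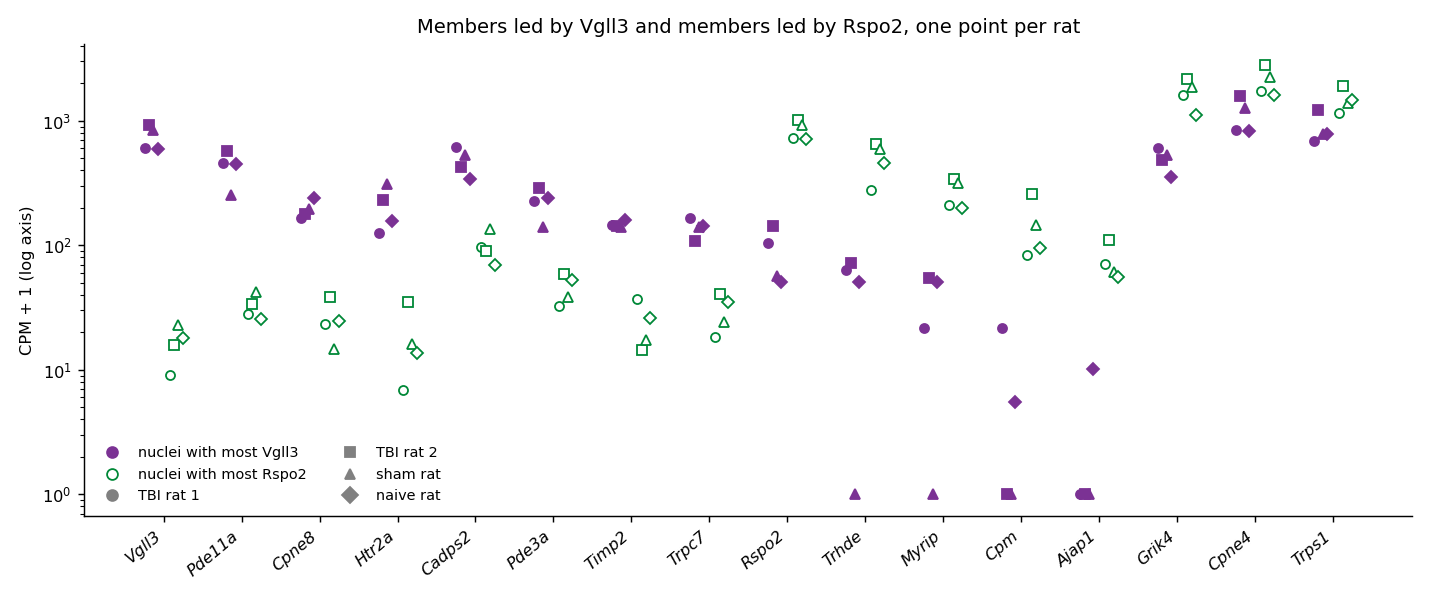
Level (CPM + 1, log axis) of 16 genes in members whose most counted positive gene was Vgll3 (filled) and in those whose most counted was Rspo2 (open), with 1 point per rat. Pde11a lies between 252 and 572 CPM in the former and between 24.4 and 41.3 in the latter, while Trhde and Myrip show the reverse order in every rat, as do Grik4 and Cpne4 by smaller factors.

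Members were 1.60% of the kept nuclei in TBI rat 1 (95% exact binomial interval 1.38% to 1.83%), 1.85% in TBI rat 2 (1.64% to 2.08%), 1.23% in the sham rat (1.07% to 1.41%) and 2.01% in the naïve rat (1.76% to 2.29%). The 2 controls were the lowest and the highest of the 4 shares. Of the nuclei with Slc17a7 and little Gad1 or Gad2, members were instead 2.94% and 4.52% in TBI rats 1 and 2. The sham and naïve rat then lay between them, at 2.96% and 3.30%. The TBI mean exceeded the control mean by 0.100 percentage points (exact permutation test over rats, two-sided, p = 1.0), and the smallest p that 2 rats against 2 allow is 0.333. The intervals cover counting error only, and the share moves with depth, since only 6, 25, 9 and 15 nuclei met the rule once all were thinned to 1000 UMIs.

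The injury effect was tested on UMI sums per rat over the members with edgeR's quasi-likelihood test, with 2 TBI rats against the sham and naïve rat. Of 8967 genes tested, 0 passed a false discovery rate (FDR) of 0.05, which is 0.0%, and the smallest FDR rounded to 1. Unadjusted p was under 0.05 for 158 genes, or 1.76%. Both TBI rats lay above both controls for 16.5% of the genes and below both for 10.6%, so that the groups did not overlap for 27.1%, and 48.7% of the fold changes were above 0. DESeq2 also called 0 genes, with 29 at an unadjusted p under 0.05, and limma-voom 0, with 221. The p-values measure only the spread between these rats.

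The count of calls depended on single rats. Without TBI rat 1 the same test called 244 genes, 21 higher and 223 lower in TBI rat 2 than in the controls, without TBI rat 2 it called 4, without the sham rat 1 and without the naïve rat 0. The lone TBI rat is then assumed to vary as the controls do.

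The genes of smallest p with separate groups are described as values that did not pass. Among those higher in both TBI rats, Nxf1, which encodes the main mRNA export receptor, was at 163 and 139 CPM in TBI rats 1 and 2 and at 92.1 and 79.6 in the sham and naïve rat, a log2 fold change of 0.78 (SE 0.22). Jag2, a Notch ligand gene, was at 52.3 and 62.8 against 29.5 and 20.6 CPM (1.19, SE 0.34). Ntn1, the axon guidance cue netrin 1, was at 46.7 and 70.0 against 21.2 and 29.2 CPM (1.16, SE 0.37). In each of these genes the lower TBI rat lay above the higher control.

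Rnf112, an E3 ligase and GTPase gene of neurons, was at 249 and 183 against 111 and 129 CPM. Ngef, an exchange factor that links Eph receptors to RhoA, was at 47.6 and 27.8 against 14.2 and 12.6 CPM, and Nsmf, which carries signals from NMDA receptors to the nucleus, at 152 and 133 against 80.3 and 85.5. The remaining 4 were Zfyve27 at a log2 fold change of 0.87, the chloride transporter gene Clcn6 at 0.99, the syntaxin gene Stx2 at 1.03 and Mllt6 at 0.87. All 10 genes had an adjusted p of 1 by edgeR.

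Among those lower in both TBI rats, Akap8l, an anchoring protein gene of the nuclear matrix, was at 173 and 161 CPM in TBI rats 1 and 2 against 275 and 315 in the sham and naïve rat (-0.86, SE 0.22, the smallest unadjusted p of the genes named here at 0.00387). Cntn4, a contactin of the neuronal surface, was at 246 and 239 against 399 and 356 CPM (-0.68, SE 0.22). In both genes the 2 TBI rats lay close together and below both controls.

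Chst1, a sulfotransferase of keratan sulfate, was at 127 and 73.6 against 161 and 244 CPM, and Scg3, a granin of secretory granules, at 56.98 and 26.0 against 66.1 and 119. Both were lowest in TBI rat 2 and highest in the naïve rat. Stard13 had a log2 fold change of -1.14, Zcchc4 of -1.38, Arhgap42 of -0.67, Lix1 of -0.75 and Cpq of -1.17. Jag2, Ntn1, Chst1 and Scg3 passed an FDR of 0.05 when TBI rat 1 was left out, and the rest of the genes named here passed under none of the alternatives tried. In members with a sum of 5 or more the log2 fold change of Ngef was 0.68 and that of Zfyve27 1.66. Without the members holding microglial, oligodendroglial or vascular UMIs, Cpq was at -0.31, Lix1 at -0.36 and Arhgap42 at -0.41. Without TBI rat 2 Ntn1 was at 0.71, and without the naïve rat Scg3 was at -0.73 and Cpq at -0.51.

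**Figure D4:**
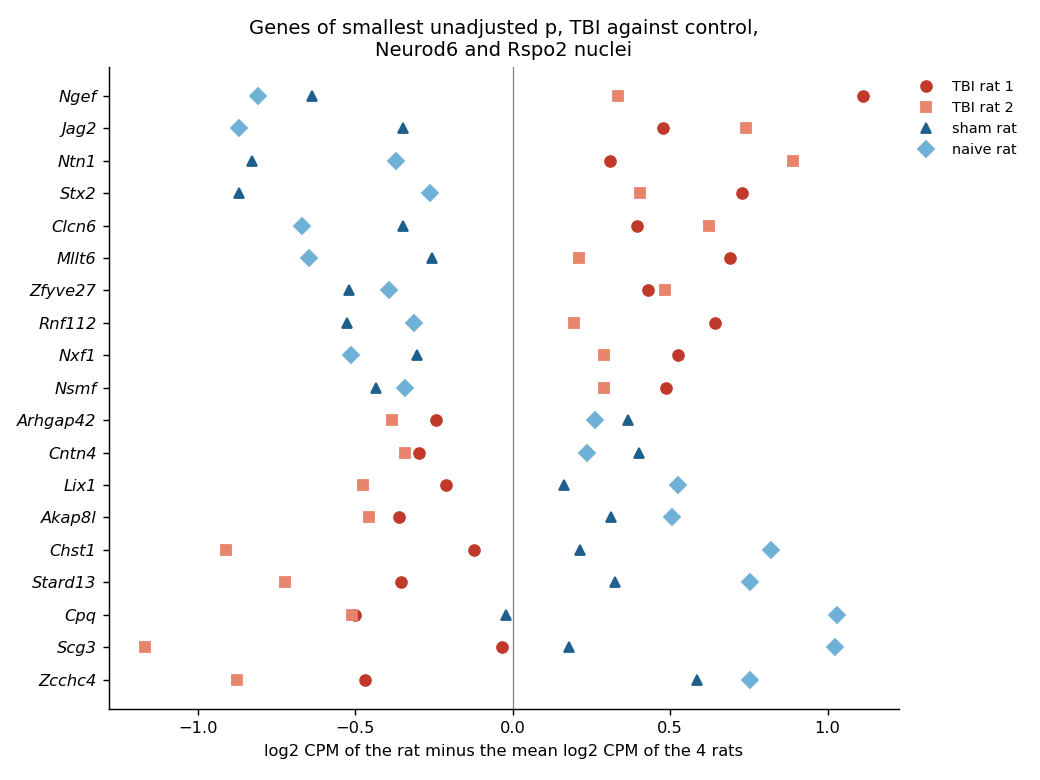
Log2 CPM of each rat minus the mean log2 CPM of the 4 rats, for the genes named for smallest unadjusted p with separate groups in the Neurod6 and Rspo2 nuclei. Circles and squares are the TBI rats, and triangles and diamonds are the sham and naïve rat. The 2 groups are separate for every gene because the genes were chosen so, and none passed the FDR of 0.05.

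The same genes in the other excitatory nuclei of the same rats ranged from larger values to values near 0. Nxf1 had a log2 fold change of 0.98 in Fermt1 and Adamts2 nuclei and 0.70 in granule nuclei, Akap8l of -0.59 and -0.81, and Chst1 of -0.89 and -1.0. Some genes had a larger value than in members in a single class only, with a smaller value in the other. Nsmf was at 0.58 and 1.09 against 0.73 in members, Mllt6 at 0.58 and 1.17 against 0.87, and Lix1 at -1.04 and -0.32 against -0.75. In other genes the granule value was far smaller, as for Scg3 at -1.27 and -0.02, Cpq at -1.54 and -0.08, Stard13 at -0.41 and -0.19, Zfyve27 at 0.42 and 0.09 and Arhgap42 at -0.34 and 0.07. The 3 classes come from the same rats, so these values are not independent. Cntn4 was at -0.20 and -0.28 in Fermt1 and Adamts2 nuclei and in granule nuclei, with both TBI rats below both controls in each, and the change in members differed from these by -0.44 and -0.39, with an unadjusted p of 0.0137 and 0.0743 in edgeR's interaction test and an adjusted p of 1 in both.

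The difference in injury effect from the other classes was tested as the interaction of class and injury with the rat as a block. Against Fermt1 and Adamts2 nuclei, 0 of 9909 genes passed (0.0%), and 253 had an unadjusted p under 0.05, or 2.55%. Against granule nuclei, 0 of 10042 passed (0.0%), and 145 had an unadjusted p under 0.05, or 1.44%. An injury effect particular to the Neurod6 and Rspo2 nuclei was therefore not detectable with these 4 rats. Without TBI rat 1 the 2 comparisons called 40 and 364 genes, and without TBI rat 2 they called 9 and 2.

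The smallest p against granule nuclei was that of Tmsb4x, the actin-binding peptide thymosin β4 that microglia hold in abundance, with an adjusted p of 0.542 by edgeR. It was at 138 CPM in members of TBI rat 1 and at 7.18, 7.08 and 4.64 in TBI rat 2, the sham and the naïve rat, and at 125, 7.09, 52.2 and 32.9 CPM in granule nuclei. The high value was that of TBI rat 1. The microglia list summed to 50.4, 35.9, 37.8 and 65.7 CPM in members, highest in the naïve rat, where Tmsb4x was lowest, and the part of other cells in this value was not tested. The others with a positive difference were Ano2, Cep70, Lrig2, Polr3a, Spata2L, Kdm5b, Ift43, Ldb2 and Atxn3. Those with a negative one were Pid1, Cadps2, Ephb1, Lonp1, Boc, Pitrm1, Smarcad1, Nxn, Ncan and Bmp6. Pid1, which encodes an adaptor of insulin signaling, was at 76.6, 106, 107 and 94.2 CPM in members and at 32.8, 51.2, 18.5 and 17.7 in granule nuclei, where both TBI rats were above both controls.

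Against Fermt1 and Adamts2 nuclei the smallest p was that of Ptprz1, a receptor phosphatase of glia, with a difference of 0.81 (SE 0.19) and an adjusted p of 1 by edgeR. It was at 226, 112, 158 and 302 CPM in members and at 171, 108, 225 and 461 in Fermt1 and Adamts2 nuclei, highest in the naïve rat in both. Cst3, Mt3, Fdft1, Rorb, Lrpap1, Sox5, Atxn3, Dtx2 and Usp5 also had positive differences. Etv5, Mipep, St18, Nsg1, Wipf3, Slc9a2, Vstm2a, Arhgap20, Abcb10 and Ptprr had negative ones. Mt3, a metallothionein that astrocytes hold in abundance, was at 66.3, 10.8, 10.6 and 26.5 CPM in members against 67.7, 11.1, 22.2 and 77.0. Astrocyte RNA was highest in the naïve rat in both classes, at 976 CPM in members and 2062 in Fermt1 and Adamts2 nuclei, and its part in these differences was not tested.

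Gene lists chosen for the roles of these nuclei are described by their counts, with 0 members called in any of them. All counts are over the list genes that passed the filter on low counts, with the 11 genes of the selection rule left out, and the median fold change of all 8967 genes was -0.01. Counts of genes with separate groups stand beside 16.5% of all genes above both controls and 10.6% below both. The direction of several lists turned when single rats were left out, as given with each.

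Of the genes of inhibitory input, all 10 measured GABA-A receptor subunits of 13 had fold changes below 0, with a median of -0.21, and 3 lay below both controls in both TBI rats, against 10.6% of all genes. Among them were the α2 subunit gene Gabra2 at 503 and 503 CPM in the TBI rats against 652 and 592 and the β1 subunit gene Gabrb1 at 2188 and 2259 against 2596 and 2351. The log2 fold change was -0.34 (SE 0.23) for Gabra2 and -0.19 (SE 0.27) for Gabrb1. Gabra5, the α5 subunit of extrasynaptic receptors in hippocampal pyramidal cells, was at 199.9, 217, 230.2 and 182 CPM in members against 109 in Fermt1 and Adamts2 nuclei and 86.0 in granule nuclei. The count was 12 of 12 below 0 without TBI rat 2, 10 of 12 without TBI rat 1, 9 of 10 with library totals in place of TMM normalization and 7 of 10 in members with a sum of 5 or more. Summed over the list, members held 3683 and 3667 CPM in TBI rats against 4517 and 3960. The sums were 4327 and 4692 against 5128 and 4702 in granule nuclei and 4155 and 4164 against 4738 and 4167 in all kept nuclei. They overlapped in Fermt1 and Adamts2 nuclei, at 3425 and 3956 against 4453 and 3598. A lower sum in TBI rats was thus not particular to members.

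Voltage-gated potassium channel genes showed 22 of 25 fold changes above 0, with a median of 0.20 and 7 genes above both controls in both TBI rats, against 16.5% of all genes. Kcnab2, a β subunit, was at 535 and 639.5 CPM against 460.4 and 362, and Kcnq5, an M-current subunit, at 997 and 1175 against 952 and 720.2. Sodium, calcium and HCN channel genes showed 17 of 21 above 0, with a median of 0.14 and 6 genes above both controls, among them the β3 subunit gene Cacnb3 at 28.0 and 32.3 against 16.5 and 5.97. Without TBI rat 2 both directions turned, to 11 of 26 above 0 with a median of -0.10 and to 8 of 22 with a median of -0.06. Without the naïve rat they were 17 of 26 with a median of 0.10 and 11 of 22 with a median of -0.01.

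Among glutamate receptor genes, the AMPA, NMDA, kainate and delta group showed no common direction. Of 16 AMPA, NMDA, kainate and delta receptor genes 6 were above 0, with a median of -0.08, and 3 lay above both controls, namely Gria2, Grin1 and Grik5. Without the sham rat 12 of 16 were above 0, with a median of 0.21. All 5 metabotropic receptor genes measured were below 0, with a median of -0.19, and Grm3 lay below both controls, at 172 and 43.1 CPM against 183 and 239. Grm3 is also an astrocyte gene, and of the metabotropic genes measured, 3 of 6 were below 0 without TBI rat 1 and 3 of 7 without the sham rat.

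In the R-spondin and Wnt pathway 16 of 37 genes were tested, with Rspo2 left out as a gene of the rule, 6 of them above 0, with a median of -0.06. Without the naïve rat 12 of 16 were above 0, with a median of 0.20, and without the sham rat 7 of 19, with a median of -0.31. Of the receptor genes of R-spondins, Lgr4 was at 67.3, 45.7, 63.7 and 83.6 CPM, while Lgr5 and Lgr6 were at most 3.74 in any rat. The ligand gene Rspo3 was at a mean of 52.3 CPM in members against 102 in granule nuclei, opposite to Rspo2, and Rspo4 was at 0. The Wnt antagonist-family gene Dkk3 was at 226 CPM in members, 139 in Fermt1 and Adamts2 nuclei and 50.7 in granule nuclei. Lef1, a nuclear effector of Wnt signals, was at 15.9 and 33.2 CPM in TBI rats 1 and 2 against 10.6 and 12.6, and Fzd3, a Wnt receptor gene, at 60.7 and 53.8 against 66.1 and 83.6. Both were among the 5 genes with separate groups, 3 higher and 2 lower, beside 27.1% of all genes.

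Of 22 NeuroD and pyramidal transcription factor genes 17 were tested, Neurod6 not among them, 11 of them above 0, with a median of 0.09, and 8 of 18 without TBI rat 2, with a median of -0.04. Lmo4, a LIM cofactor that binds NeuroD-containing complexes, was at 240.1 and 388 CPM in the TBI rats against 229 and 224, and Neurod1 at 18.7 and 20.6 against 13.0 and 13.3. Zbtb20, a repressor that marks hippocampal identity, was nearly level over rats, at 3187, 3435, 3348 and 3249 CPM. Of the Vgll3, TEAD and Hippo genes 7 of 15 were tested, Vgll3 not among them, with 3 above 0 and a median of -0.06, and 5 of 8 were above 0 without TBI rat 1. Tead1 was at 636, 673, 639 and 688 CPM, 659 on average against 286 in Fermt1 and Adamts2 nuclei and 289 in granule nuclei, and Tead2, Tead3 and Tead4 were at most 1.87 CPM in any rat.

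Of the lipoprotein lipase and lipid uptake genes 9 of 18 were tested, Lpl not among them, and 6 were above 0, with a median of 0.25. Lmf1, needed for lipase maturation, was at 50.4 and 65.5 CPM in TBI rats 1 and 2 against 37.8 and 34.5. The lipoprotein receptor genes Lrp1, Lrp8 and Vldlr and the sorting receptor gene Sort1 were also above both controls, Lrp1 at 149 and 141 against 105 and 97.5 (log2 fold change 0.48, SE 0.21). Apoe, which astrocytes secrete, was at 271, 130.1, 23.6 and 1249 CPM, highest in the naïve rat as the astrocyte list was. Without TBI rat 2 the count was 6 of 11 above 0, with a median of 0.12.

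The bulk libraries came from rats that had no part in choosing the nuclei, and gave the whole dissected tissue. Over 14166 genes limma called 0 (0.0%), with 1340 at an unadjusted p under 0.05, or 9.46%, and with groups that did not overlap for 14.7%. The study used DESeq2 on counts of the same libraries and reported differentially expressed genes, most of them higher in TBI. The 0 calls here thus belong to limma on the deposited log2 values and do not show that bulk tissue was unchanged. In bulk tissue, fewer cells of a type and less RNA per cell cannot be told apart.

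Rspo2 was at a log2 CPM of 6.40, 7.17 and 7.29 in sham rats 1, 2 and 3 and at 6.37, 7.18 and 6.18 in TBI rats 1, 2 and 3, a difference of -0.37 (SE 0.31, adjusted p = 0.814 by limma). Neurod6 was at 7.72, 8.23 and 8.23 in sham and at 7.72, 8.13 and 7.22 in TBI rats, also a difference of -0.37 (SE 0.24, adjusted p = 0.719 by limma). Lpl was at 6.12, 6.79 and 7.18 against 6.22, 6.63 and 6.28. The 3 genes moved together between libraries, so that the groups overlapped. Sham rats 2 and 3 and TBI rat 2 were high, and sham rat 1 and TBI rats 1 and 3 were low. TBI rat 3 was the lowest library in Rspo2 and Neurod6, so their differences rest in part on that rat.

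Cpne4 followed the same order, at 7.81, 8.69 and 8.71 in sham and 7.71, 8.66 and 7.38 in TBI rats. Its difference was -0.48 (SE 0.36), and TBI rat 3 was again the lowest library. Grik4 differed by -0.30 and Nectin3 by -0.46, with groups that overlapped. Prox1 ran the other way, at 6.72, 4.68 and 4.0 in sham and 6.25, 4.63 and 5.58 in TBI rats, a difference of 0.35 (SE 0.69) that turned to -0.03 without TBI rat 1, to -0.21 without sham rat 3 and to -0.01 with edgeR on counts. The 8 granule markers in bulk deviated from their mean over libraries by 1.45, -1.09 and -0.85 on the log2 scale in sham rats 1, 2 and 3 and by 0.68, -0.62 and 0.43 in TBI rats 1, 2 and 3. The granule marker level thus moved opposite to Rspo2, Neurod6, Lpl, Cpne4, Grik4 and Nectin3 between libraries. Its part in the bulk levels of these genes was not tested. Other genes named for the nuclei, such as Vgll3 and Man1a1, did not show this order.

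Vgll3 was low in bulk, at -0.67, 0.01 and 2.16 log2 CPM in sham and 1.86, 1.55 and 2.41 in TBI rats, a difference of 1.44 (SE 0.69, adjusted p = 0.581 by limma) with groups that overlapped. Pde11a, chosen here after its values were seen, was at 1.70, 2.27 and 2.30 in sham and 3.16, 2.90 and 2.77 in TBI rats, a difference of 0.85 (SE 0.23, adjusted p = 0.234 by limma) that did not pass, with separate groups. Surgeries fell in spring (sham rats 1 and 2 and TBI rat 1) and in autumn (sham rat 3 and TBI rats 2 and 3). Within spring and autumn the difference of Vgll3 was 2.18 and -0.18, that of Pde11a 1.17 and 0.53, that of Rspo2 -0.41 and -0.61, that of Neurod6 -0.26 and -0.56 and that of Lpl -0.24 and -0.72. Of the 11 genes outside the rule that stood most above other Slc17a7 nuclei, all were in bulk, with a median difference of -0.35, and for 2 of them the groups did not overlap, beside 14.7% of all bulk genes. Of the 12 CA3 markers 11 were in bulk, with a median difference of -0.27, and none had separate groups. In the nuclei 9 of 9 tested CA3 markers had fold changes above 0, with a median of 0.18 and 2 above both controls beside 16.5% of all genes, but 2 of 9 were above 0 without TBI rat 2, with a median of -0.06.

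**Figure D5:**
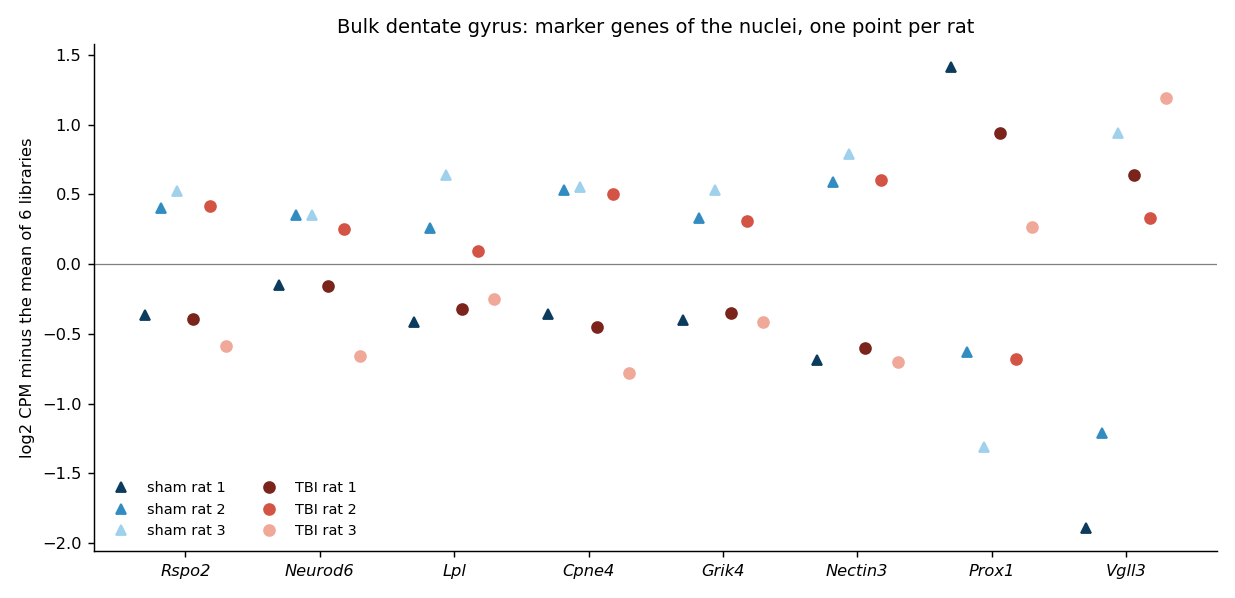
Bulk log2 CPM of 8 genes minus the mean of the 6 libraries, with 1 point per rat, triangles for sham and circles for TBI. Sham rats 2 and 3 and TBI rat 2 lie above the mean for Rspo2, Neurod6, Lpl, Cpne4, Grik4 and Nectin3 and below it for Prox1, and the other 3 libraries lie on the opposite side for each of these genes.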

How the data were processed

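The members, the comparison classes and the gene lists were chosen with earlier results of these data known, so no list counts as independent evidence. UMI counts were deposited by the authors as raw matrices per rat, made with Cell Ranger on Rnor_6.0 from exons and introns of 10x libraries. Stored zeros, 1.63% to 27.4% of entries, were read as 0. Total UMIs were 32543813 and 26451421 in TBI rats 1 and 2, 35330548 in the sham and 35150697 in the naïve rat. No doublet caller was run, so doublets remained except where the Gad1 and Gad2 limit removed them. Estimated counts per transcript from kallisto, also deposited by the authors, served only for bulk library totals of 25121893 to 44649404 reads. Bulk log2 CPM values were computed by the authors in ExpressAnalyst after filters on annotation, abundance and variance. The offset they added before the logarithm is not stated, and fold changes of low genes may be understated.

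UMIs were summed per rat and class, since nuclei are not replicates. The sums were tested with edgeR 4.0.16 (R 4.3.3, TMM, filterByExpr, quasi-likelihood) at an FDR of 0.05 with Benjamini-Hochberg adjustment. The 11 genes of the rule and mitochondrial genes were left out of the tests on nuclei. DESeq2 1.42.0 and limma 3.58.1 (voom) were alternatives, and bulk values were tested with limma. Levels are CPM of the class sum. Class ratios used a pseudocount of 1 CPM and carry no test. They were listed for genes of at least 50 CPM with the same direction in all 4 rats. Shares were compared with an exact permutation test over rats (scipy 1.17.1). Simulated data with known changes were run through the main edgeR fit, its interaction with Fermt1 and Adamts2 nuclei, and the main limma fit. The other fits were not simulated, and the outcome is not given here. Bulk gene IDs were named for 13778 of 14166 genes through the RefSeq table of GRCr8.

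The genes named are those of the rule and the markers, the 15 highest and 5 lowest ratios to other Slc17a7 nuclei, the 10 highest and 10 lowest to each comparison class, and all called genes or, with under 20 called, up to 10 of smallest p in each direction with a mean of at least 20 CPM and groups that do not overlap. Genes of the Vgll3-led members, and examples from the lists, were chosen after their values were seen. Genes that the rule chose but that are withheld are not reported here.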

Additional observations from a re-analysis of the deposited data

How the results depend on the processing

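The injury effect in the Neurod6 and Rspo2 nuclei called 0 genes under DESeq2, limma-voom, library totals without TMM and a minimum of 50 UMIs. It also called 0 with a sum of 5 or more and with sums thinned to the smallest total. Leaving out members with Prox1 UMIs, or those with microglial, oligodendroglial or vascular UMIs, gave 0 calls as well. The study's nucleus filters and a minimum of 1000 UMIs removed no member, so their 0 calls only repeat the main fit. The injury effect also had 0 calls without the Vgll3-led members, an alternative chosen after seeing the data. With no filter on low counts it called 19 genes, 15 higher and 4 lower, among them Tmsb4x, Apoe, Gfap and genes of ribosomal proteins, and the cause was not tested. Leaving out single rats gave 0 to 244 calls. The difference from Fermt1 and Adamts2 nuclei ranged from 0 to 40 calls and that from granule nuclei from 0 to 364, in each case highest without TBI rat 1. Without TBI rat 2 the 4 genes called in members were Tmsb4x, Rpl24, Atp5me and AABR07000398.1, and without the sham rat the 1 called was Gfap. Without a rat block both differences had 0 calls. For the genes chosen by the naming rule for the injury effect, 315 of the values under alternatives kept their direction and side of the threshold. The exceptions were Jag2, Ntn1, Chst1 and Scg3 without TBI rat 1, a fit with 1 TBI rat. The 315 include the values under the study's nucleus filters and the minimum of 1000 UMIs, which could not differ from the main fit.

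For the share of nuclei a p under 0.05 cannot be reached with 2 rats against 2. Leaving out single rats moved the difference between -0.290 and 0.491 percentage points. It was 0.604 points over nuclei with Slc17a7 and -0.00660 points for sums of 5 or more.

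No paired analysis was possible because the 4 nucleus libraries share fewer than 2 replicate numbers between TBI and control. The bulk rats share numbers 1, 2 and 3, but same-numbered rats had correlations of deviations of 0.35, 0.17 and -0.03, so they share only a number. With the replicate block limma called 125 genes in bulk, 124 higher and 1 lower, against 0 without it. Leaving out single rats gave 0 to 1 bulk calls. Prox1 in bulk reversed, from 0.35 to -0.010 with edgeR on worked-back counts and to a range of -0.21 to 1.15 when single rats were left out. The surgery period as a covariate gave 0 calls.

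With 2 rats in each group, a common dispersion of 0.067 and 847082 to 1507899 UMIs per rat over the members, small changes and low genes were not detectable. The sham and naïve rat differ in surgery, and the control group mixes both.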

Other observations

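Among further lists, immediate early genes had 7 of 8 measured genes of 18 with fold changes above 0 in the Neurod6 and Rspo2 nuclei, with a median of 0.29, and 4 of 9 without TBI rat 2, where the median was -0.28. Nr4a1, an activity-induced nuclear receptor, was at 13.1 and 55.6 CPM in TBI rats 1 and 2 against 11.8 and 9.95 in the sham and naïve rat, so that TBI rat 2 held the high value. Calcium and calmodulin kinase genes had 18 of 24 above 0 with a median of 0.10, and 10 of 24 without TBI rat 2. Camkk1, a kinase upstream of the calmodulin kinases, was at 97.1 and 60.1 CPM against 51.9 and 46.4. Neurotrophin and receptor genes had 8 of 10 above 0 with a median of 0.05, 4 of 10 without TBI rat 2, and 2 of 10 without the naïve rat, where the median was -0.07. Bdnf was at 94.3, 97.8, 115 and 97.5 CPM in TBI rats 1 and 2, the sham and the naïve rat, with 116 CPM on average in Rspo2-led and 35.4 in Vgll3-led members. None of these genes passed the FDR of 0.05.

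Axon guidance genes had 17 of 34 above 0 with a median of 0.00, synaptic adhesion genes 13 of 33 with a median of -0.04, and vesicle release genes 13 of 26 with a median of 0.01. Without the sham rat the 3 counts were 24 of 35, 20 of 33 and 18 of 26, and without TBI rat 2 they were 14 of 34, 13 of 33 and 9 of 26. Ephb2, a receptor of ephrin-B ligands at dendritic spines, was at 289.6 and 431 CPM in the TBI rats against 264 and 166, and Neo1, a netrin receptor gene, at 101 and 83.4 against 129 and 123. Cytoskeleton genes had 7 genes above and 4 below both controls of 24 measured, beside 16.5% and 10.6% of all genes, and 13 of 24 fold changes above 0, but 6 of 24 without TBI rat 2. Nefl, the light neurofilament chain, was at 78.5 and 46.6 CPM against 79.1 and 123, while Kif5a, a neuronal kinesin, was at 259.7 and 274 against 239.6 and 184 and its paralog Kif5b at 77.5 and 55.6 against 88.5 and 105. The 2 kinesin genes thus differed in direction, and neither passed the test. Axon injury genes had 7 of 9 above 0 with a median of 0.16, and 4 of 9 with a median of -0.06 without TBI rat 1. Stress genes had 5 of 14 above 0 with a median of -0.08, 10 of 14 with a median of 0.37 without the naïve rat, and a median of -0.62 without the sham rat. Interferon and antigen presentation genes had 2 of 4 above 0 with a median of -0.33, and 3 of 4 with a median of 0.19 without the naïve rat.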
